A study of Mus musculus with 32 samples.

Results

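The liver transcriptome of mice without medium-chain acyl-CoA dehydrogenase (MCAD, encoded by Acadm) was compared with that of wild-type (WT) mice in the fed state on a high-fat (HF) diet. The labels of 8 of the 32 sequenced livers give this condition, 4 from Acadm-knockout mice (KO) and 4 from WT mice, and each library came from 1 mouse. All 8 were male and on the C57BL/6J strain background, the WT mice being littermates. They had received a semi-synthetic diet with palm oil as its fat for 6 weeks and kept access to it while the mice of other groups were fasted for 16 h. The labels give the ages without a unit, as 10, 10, 11.5 and 10.5 for KO replicates 1 to 4 and 9, 11, 10 and 11 for WT replicates 1 to 4. How many litters the mice came from, and which part of Acadm the knockout removes, is not given in the sources used here. The libraries were primed at the 3′ ends of polyadenylated RNA, with a depth of 2416391 to 3231341 gene counts. Levels are given as CPM, a gene's share of the library's counts, scaled by the trimmed mean of M-values (TMM), and differences as log2 fold changes of KO over WT with their standard error (SE).

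MCAD removes the first pair of hydrogens from acyl-CoAs of medium chain length inside mitochondria, one of the 4 repeating reactions of fatty-acid beta-oxidation, with neighbouring enzymes of the same family acting on shorter and longer chains. Acyl-CoAs that are not oxidized can leave the pathway when their acyl group is passed to carnitine, to glycine or another amino acid, or to water, each of which sets coenzyme A (CoA) free. Medium-chain fatty acids can also be shortened in peroxisomes or oxidized from the far (omega) end in the endoplasmic reticulum. In the fed state on a high-fat diet the liver takes up dietary fat while fasting signals are low.

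Acadm was the check of the labels. It lies on chromosome 3 of GRCm38 from 153922357 to 153944632, on the minus strand. In the KO mice it had 14.9, 10.7, 14.2 and 9.27 CPM in replicates 1 to 4, from 41, 26, 46 and 28 counts. The WT mice had 337, 301, 318 and 356 CPM, from 850, 796, 1037 and 973 counts. The groups were far apart, and each mouse matched its label. The transcript fell by 4.73 on the log2 scale in KO (SE 0.173), which is 26.6-fold lower, with a p of 1.1e-13 from the edgeR quasi-likelihood F test after Benjamini-Hochberg adjustment across 10024 genes. Of the 37 other genes tested within 10 Mb on either side of Acadm, 0 were higher and 0 lower in KO at an unadjusted p below 0.05, the smallest p being 0.051, and their median log2 fold change was -0.06. These neighbours were looked at as a description of the chromosome around the targeted gene.

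Acadm was the 1 gene of 10024 (0.00998%) at an adjusted p below 0.05, and the gene next to it was Acnat2 with an adjusted p of 0.126. For every further gene the adjusted p was at least 0.999. At an exploratory unadjusted p below 0.05, 200 genes (2.0% of those tested) were higher and 193 (1.93%) lower in KO. Together these are 3.92% of the genes tested, fewer than the 5% that such a threshold admits when no gene differs, so a single gene at this threshold is a description of these 8 mice and not a called difference. In 136 genes (1.36%) all 4 KO mice lay above all 4 WT mice, and in 141 (1.41%) all 4 lay below. The median log2 fold change over all genes was -0.0021, with quartiles of -0.16 and 0.16. Of the 393 genes at an unadjusted p below 0.05, 87.3% differed by less than 2-fold. Below, "higher" and "lower" refer to this exploratory threshold unless an adjusted p is given.

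**Figure D1:**
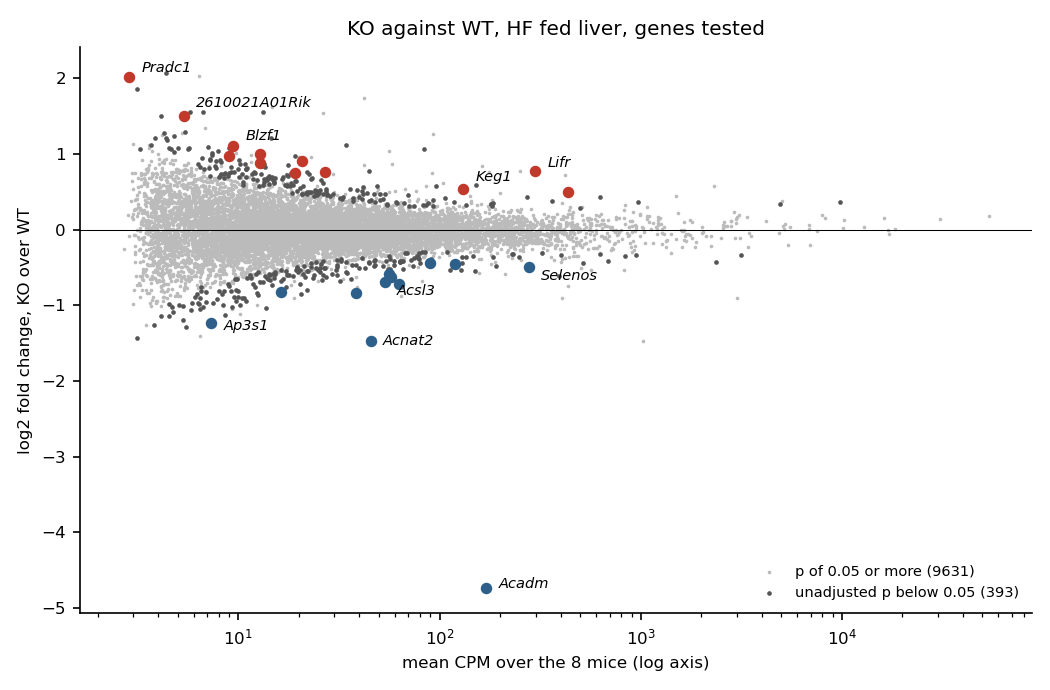
Log2 fold change of KO over WT (vertical axis) against mean CPM over the 8 HF fed mice (horizontal log axis), one point per gene tested. Red and blue points are the genes with the smallest unadjusted p, 12 higher and 12 lower in KO; Acadm at -4.73 lies apart from all others, and Acnat2 at -1.47 stands at the edge of the cloud.

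Before the gene groups, the livers were compared for RNA of other tissues. The 10 hepatocyte markers summed to between 54737 and 72718 CPM in each of the 8 mice, and the macrophage list to between 580 and 727 CPM. KO replicate 1 stood apart by its acinar pancreas list, 15 genes of digestive enzymes such as Cpb1 and Prss2, with a sum of 3147 CPM against 16.7 to 41.7 CPM in the other 7 mice. Cpb1 had 646 CPM in that mouse and at most 1.32 CPM in the others. The same mouse had 2152 CPM of the skeletal muscle list, 24.3 CPM of the adrenal medulla list and 3.26 CPM of the islet list, and it held adrenal cortex genes such as Hsd3b1 (11.6 CPM against 0 in the other mice). It was also the highest mouse for the B and plasma cell list, with 59.5 CPM against at most 17.9 CPM in the others. The same held for the adipose tissue list, with 49.7 CPM against at most 25.7 CPM. WT replicate 4 had 1182 CPM of the muscle list, with 344 CPM of the muscle actin Acta1, while the other 6 mice had 6.04 to 63.7 CPM. These genes are few and of other tissues, but KO replicate 1 carried several of them at once, so the counts of each list that change without these 2 mice are given with the lists, and the part of this RNA in the results was otherwise not tested. Acta2 of stellate and smooth muscle cells (log2 fold change 1.08, unadjusted p 0.0066), Actc1 of heart muscle and Apoa1 of hepatocytes were the marker genes at an unadjusted p below 0.05, and all 3 were higher in KO. They were 1 of 11 stellate, 1 of 1 heart and 1 of 10 hepatocyte markers tested, where 2.0% of all genes tested were higher. Actc1 was near the floor, with 1.23 to 8.28 CPM in KO and 0 to 4.39 CPM in WT, highest there in WT replicate 4, the mouse with muscle RNA. With fewer cells of a type and less RNA per cell not told apart in whole liver, none of these values gives a number of cells.

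**Figure D2:**
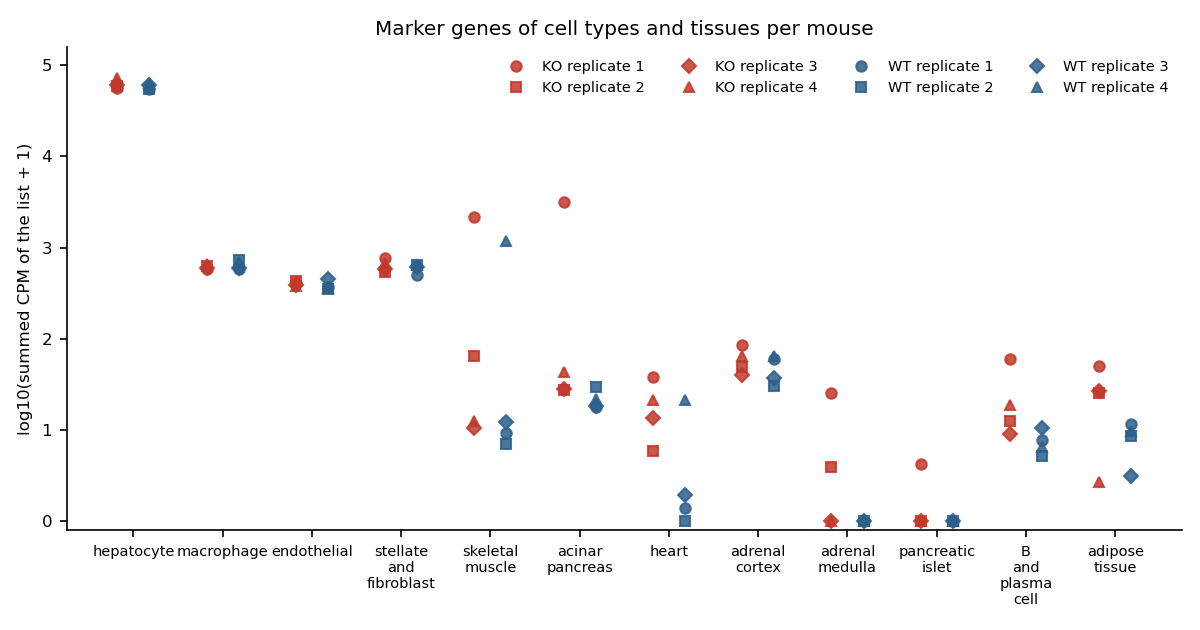
Summed level of marker lists per mouse, as log10 of summed CPM + 1, for KO (red) and WT (blue) HF fed livers, with one symbol per replicate. Hepatocyte, macrophage, endothelial and stellate sums lie close together, whereas KO replicate 1 lies above the others for pancreas, adrenal medulla and islet, and KO replicate 1 and WT replicate 4 for skeletal muscle. KO replicate 1 is also highest for B and plasma cell and adipose tissue, by a smaller margin.

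WT replicate 2 stood apart in liver genes. Of 5335 genes with a mean of at least 20 CPM, 34 were more than 2-fold below all 7 other mice in this mouse, against 0 to 14 in each of the others. Scd1, the stearoyl-CoA desaturase, had 292 CPM there and 4604 to 8822 CPM in the others. The fatty-acid synthase gene Fasn had 133 CPM against 308 to 2015 CPM, and the fatty-acid binding protein gene Fabp1 had 1497 CPM against 4343 to 5277 CPM. Pck1, which encodes the enzyme that commits carbon to gluconeogenesis, was instead highest in this mouse, with 6812 CPM against 1524 to 4770 CPM. These genes were chosen after their values were seen. Without WT replicate 2, 282 genes were higher and 235 lower in KO. The lists that moved with this mouse are given with and without it below.

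Acnat2 had the smallest p after Acadm. It encodes an acyl-CoA amino acid N-acyltransferase, a peroxisomal enzyme family that joins acyl groups to an amino acid and sets CoA free, and it lies on chromosome 4 from 49379840 to 49408151, on the minus strand. The KO mice had 13.8, 33.3, 33.7 and 15.6 CPM and the WT mice 56.8, 74.8, 68.9 and 66.5 CPM. The KO values fell into a lower and a higher pair, and the highest KO mouse stayed below the lowest WT mouse. The log2 fold change was -1.47 (SE 0.253), a level 2.77-fold lower in KO. The unadjusted p was 2.5e-05, and the exact permutation test gave p = 0.0286 (two-sided), the smallest that 4 against 4 mice allow. The neighbouring paralog Acnat1 had 3.65 ± 1.44 and 5.24 ± 1.70 CPM in KO and WT (SD, n = 4 each). Its groups overlapped. The adjusted p of Acnat2 passed 0.05 when KO replicate 3 was left out (adjusted p 0.0257), and by DESeq2 (adjusted p 0.00018), and ranged up to 0.939 over the alternatives, without WT replicate 4.

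The 250 bases before the RefSeq transcription starts of 4 genes of the lower group are shown here, Acnat2 as the leading gene after the targeted one and Hspa5, Pdia3 and Selenos as genes of the endoplasmic reticulum (ER) that were lower in KO. The sequences are from RefSeq on GRCm38.p6 and run 5′ to 3′ on the strand of the gene, and capitals mark matches to the ER stress response element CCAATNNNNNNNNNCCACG, searched on both strands. They come from chr4:49408152-49408401 (minus), chr2:34771840-34772089 (plus), chr2:121413652-121413901 (plus) and chr7:66079399-66079648 (plus).
Acnat2: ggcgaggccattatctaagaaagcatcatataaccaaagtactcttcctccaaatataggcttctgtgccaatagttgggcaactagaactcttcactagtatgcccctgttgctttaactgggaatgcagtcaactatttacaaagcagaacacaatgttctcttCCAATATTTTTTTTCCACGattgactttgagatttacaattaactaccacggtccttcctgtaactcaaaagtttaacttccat
Hspa5: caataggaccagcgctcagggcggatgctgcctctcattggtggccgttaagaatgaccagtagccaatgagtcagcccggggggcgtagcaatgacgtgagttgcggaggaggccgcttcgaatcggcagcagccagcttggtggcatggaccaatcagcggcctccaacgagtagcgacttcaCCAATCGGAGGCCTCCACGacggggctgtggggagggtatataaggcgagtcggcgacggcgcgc
Pdia3: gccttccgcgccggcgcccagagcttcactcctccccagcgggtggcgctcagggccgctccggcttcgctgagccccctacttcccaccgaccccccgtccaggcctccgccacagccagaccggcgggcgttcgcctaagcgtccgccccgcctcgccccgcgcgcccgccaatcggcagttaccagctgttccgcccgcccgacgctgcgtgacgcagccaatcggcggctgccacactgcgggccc
Selenos: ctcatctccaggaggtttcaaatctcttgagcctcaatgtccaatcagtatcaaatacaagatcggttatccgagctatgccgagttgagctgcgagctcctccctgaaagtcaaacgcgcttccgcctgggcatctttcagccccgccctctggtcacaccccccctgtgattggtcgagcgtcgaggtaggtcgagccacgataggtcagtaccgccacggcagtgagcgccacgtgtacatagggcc
The element was found once in Hspa5 and once in this window of Acnat2, for which the table gives a second start with no match, and not in these windows of Pdia3 and Selenos. It occurred in 37 of 32851 promoters of the table (0.113%). Of the 17 genes of the ER stress list with a promoter in the table, 7 held it in any of their promoters (41.2%). These were Hsp90b1, Pdia6, Dnajc3, Creld2, Calr and Derl3 beside Hspa5. Hspa5 alone of them was lower in KO, and Derl3 was not tested. The first share is of promoters and the second of genes. The second describes how the list was made up and not a difference between KO and WT. A match describes letters and does not show that a factor binds.

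**Figure D3:**
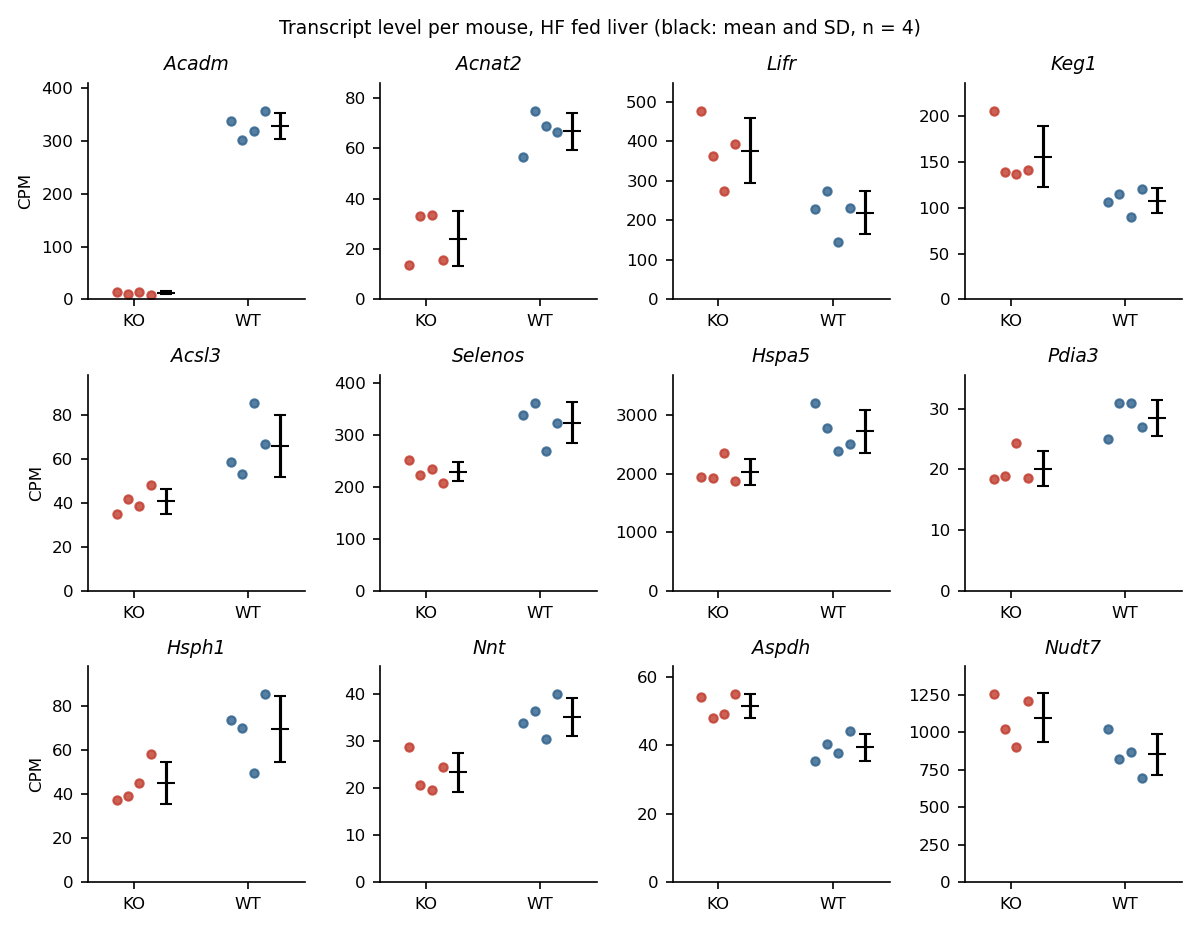
CPM of 12 genes in each of the 4 KO (red) and 4 WT (blue) HF fed mice, on linear axes from 0, with the mean and SD in black. Acadm and Acnat2 separate the groups widely, whereas the gaps of Selenos, Hspa5, Pdia3, Nnt and Aspdh are small beside their levels, and Hsph1 and Nudt7 overlap.

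Of the ER chaperone genes, Hspa5 and Pdia3 were lower in KO. Hspa5, the main HSP70 chaperone of the ER lumen, had 1939, 1928, 2354 and 1873 CPM in the KO mice and 3209, 2779, 2386 and 2506 CPM in the WT mice. The highest KO mouse and the lowest WT mouse differed by little, but the groups did not overlap, and the log2 fold change was -0.43 (SE 0.142, unadjusted p 0.0068). Pdia3, a disulfide isomerase that helps fold glycoproteins, had 18.5, 18.9, 24.4 and 18.5 CPM in KO and 25.01, 30.98, 30.9 and 27.1 CPM in WT, also without overlap (log2 fold change -0.50). Of the 18 genes of the ER stress list that were tested, 0 were higher and 2 lower, and 17 had a negative log2 fold change, where 49.6% of all genes had a positive one. The list's median was -0.16. Genes of one list can move together, so their signs do not count as independent. Hsp90b1 (-0.23) and Calr (-0.15), further lumenal chaperones, lay on the same side without reaching the threshold, and Xbp1 (0.10) was the member on the other side. The number of members lower was 4 without KO replicate 3 and 1 without KO replicate 1, the mouse with pancreas RNA. Without KO replicate 1 and WT replicate 4 it was 1, with 3 positive members, and in the model of all groups it was 0.

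Selenos, a selenoprotein of the ER membrane that takes part in clearing misfolded proteins, belongs to no list and was among the 12 lower genes with the smallest p. It had 253, 223, 235 and 209 CPM in KO and 340, 363, 270 and 324 CPM in WT. All KO mice lay below all WT mice, and the log2 fold change was -0.50 (SE 0.134, unadjusted p 0.0014).

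Heat shock genes of the cytosol lay on the same side. Hsph1, an HSP110 chaperone that recharges HSP70, had 37.4, 39.0, 45.1 and 58.3 CPM in KO and 73.5, 69.9, 49.3 and 85.2 CPM in WT. KO replicate 4 lay above WT replicate 3, so the groups overlapped, at a log2 fold change of -0.62 (SE 0.187, unadjusted p 0.0033). Hsp90aa1, the inducible cytosolic HSP90, had 52.2 to 58.9 CPM in KO and 59.4 to 85.4 CPM in WT, without overlap (log2 fold change -0.41, unadjusted p 0.015). Of the 10 genes of the heat shock list tested, 0 were higher and 2 lower, and 9 were negative, with Hspe1 (0.16) the exception. The median was -0.20, and the signs do not count as independent here either. Without KO replicate 1 and WT replicate 4 the list had 1 lower member, while Hsph1 had an unadjusted p of 0.054 and Hsp90aa1 one of 0.065. The heat shock element GAANNTTCNNGAA, searched on both strands, was found in the promoters of 2 of the 8 list genes with a promoter in the table and in 0.466% of all promoters. Here too the list was counted by gene and the background by promoter.

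In the fatty-acid oxidation pathway itself the loss of Acadm stood alone. Of the 15 acyl-CoA dehydrogenase and electron transfer genes, 0 were higher and 1 lower, Acadm itself. Acads for short chains had 268 ± 72.5 and 281 ± 23.5 CPM in KO and WT (SD, n = 4 each). Acadl for long chains had 169 ± 15.9 and 172 ± 21.3 CPM (SD, n = 4 each), and Acadvl for very long chains 207 ± 17.97 and 205 ± 12.0 CPM (SD, n = 4 each). Their log2 fold changes of -0.07, -0.03 and 0.02 were smaller than their SEs of 0.174, 0.136 and 0.127. Of the 16 genes of mitochondrial beta-oxidation and the carnitine shuttle 0 passed in either direction, with values from -0.17 to 0.20. The 2 with the highest levels were Acsl1, which activates long-chain fatty acids (0.20, SE 0.147), and Acaa2, the last enzyme of the cycle (0.12, SE 0.135). Of the 6 genes of ketone body synthesis and export 0 passed, and their median log2 fold change was -0.05.

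Of 18 genes of peroxisomal beta-oxidation, 1 was higher and 1 lower. Crot, which passes peroxisomal medium-chain acyl groups to carnitine, had 532, 566, 562 and 520 CPM in KO and 458, 383, 428 and 524 CPM in WT. KO replicate 4 lay just below WT replicate 4, and the log2 fold change was 0.28 (SE 0.133, unadjusted p 0.046). Acox3, an oxidase for branched-chain acyl-CoAs, was lower by a log2 fold change of -0.47 (unadjusted p 0.041), with KO replicate 1 at 49.3 CPM among the WT values of 37.3 to 51.6 CPM. Each kept the threshold in 2 of the 8 fits that leave out 1 mouse. Of 17 genes of omega-oxidation and the alcohol and aldehyde dehydrogenases, 1 was higher. Cyp4a12b, a male-predominant omega-hydroxylase, had 179, 75.2, 106 and 89.7 CPM in KO and 77.4, 55.5, 32.2 and 51.2 CPM in WT (log2 fold change 1.07, SE 0.326, unadjusted p 0.0099), KO replicate 2 lying below the highest WT mouse. Its near-copy Cyp4a12a had a log2 fold change of -0.07 with an SE of 0.314, and the counting may divide reads between the 2. Cyp4a14 had the most negative value of the list (-1.47, SE 0.76), from 94.0 to 946 CPM in KO and 889 to 2439 CPM in WT, and did not pass (unadjusted p 0.099). Of the 12 further targets of PPAR-alpha, the receptor that senses fatty acids, 0 passed. Fabp1 and Plin2, the 2 with the highest levels, had log2 fold changes of 0.12 and 0.11, which became -0.16 each without WT replicate 2.

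Genes that handle acyl-CoA conjugates and CoA differed singly and in both directions. Of 16 thioesterase and acyl-amino acid conjugation genes, 2 were higher and 1 lower. Keg1, a member of the glycine N-acyltransferase family, had 205, 139, 137 and 141 CPM in KO and 106, 115, 89.4 and 120 CPM in WT. The groups did not overlap, KO replicate 1 was far above the other KO mice, and the log2 fold change of 0.53 (SE 0.154, unadjusted p 0.0024) was 0.37 without that mouse. Acsm5, a mitochondrial medium-chain acyl-CoA synthetase, had 60.9, 60.0, 55.7 and 52.3 CPM in KO and 52.0, 37.8, 42.3 and 41.7 CPM in WT. All KO mice lay above all WT mice by a narrow margin (log2 fold change 0.40, unadjusted p 0.022). Acot2, a mitochondrial thioesterase, had 9.21 ± 4.03 and 12.2 ± 6.92 CPM in KO and WT (SD, n = 4 each), from 10 to 70 counts, and its groups overlapped. Of 13 genes of CoA synthesis and breakdown 1 was higher, 4 had a positive log2 fold change and the median was -0.18. Without KO replicate 1 and WT replicate 4 this median was -0.09. Nudt7, a peroxisomal hydrolase of CoA, had 1252, 1024, 900 and 1207 CPM in KO and 1022, 822, 866 and 697 CPM in WT, with overlap (log2 fold change 0.36, SE 0.15, unadjusted p 0.025). Its p was 0.246 without KO replicate 1 and WT replicate 4. The 3 pantothenate kinase genes Pank1, Pank2 and Pank3, which start CoA synthesis, had log2 fold changes of 0.21, -0.35 and -0.07.

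Of 24 genes of NAD synthesis and consumption, 2 were higher and 1 lower. Nnt, the mitochondrial enzyme that makes NADPH from NADH, had 28.7, 20.5, 19.5 and 24.5 CPM in KO and 33.7, 36.3, 30.3 and 39.9 CPM in WT. The groups did not overlap, with a log2 fold change of -0.59 (SE 0.195, unadjusted p 0.0068). As background, C57BL/6J mice are known to carry a deletion within this gene. Aspdh, an aspartate dehydrogenase of the NAD pathway, had 54.0, 48.1, 49.2 and 55.0 CPM in KO and 35.3, 40.4, 37.7 and 44.2 CPM in WT, also apart (log2 fold change 0.39, unadjusted p 0.025). Nmrk1, the nicotinamide riboside kinase, had 14.2 to 34.8 CPM in KO and 9.93 to 23.0 CPM in WT. KO replicate 1 was the highest mouse, and the unadjusted p of 0.043 became 0.217 without it.

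Lipid synthesis was where WT replicate 2 set the spread. Of 18 lipogenesis genes 0 were higher and 0 lower, with a median of -0.10. Scd1 had 5618 ± 1186 and 5464 ± 3644 CPM in KO and WT, and Fasn 676 ± 250 and 981 ± 782 CPM (SD, n = 4 each). Without WT replicate 2 the median was -0.41 and 4 genes were lower, namely Scd1 (-0.36), Elovl5 (-0.43), Elovl6 (-0.86) and Me1 (-0.87). Without WT replicate 3, the WT mouse with the most Fasn (2015 CPM) and Scd1 (8822 CPM), the median was instead 0.20 with 0 genes past the threshold. The direction of this list therefore changed with which WT mouse was left out. The 24 genes of cholesterol synthesis and LDL uptake behaved alike, with 0 higher and 0 lower and a median of 0.03 over all mice, and a median of -0.23 with 4 lower, among them Hmgcs1 (-0.47), without WT replicate 2. With lane as a term it was -0.13.

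**Figure D4:**
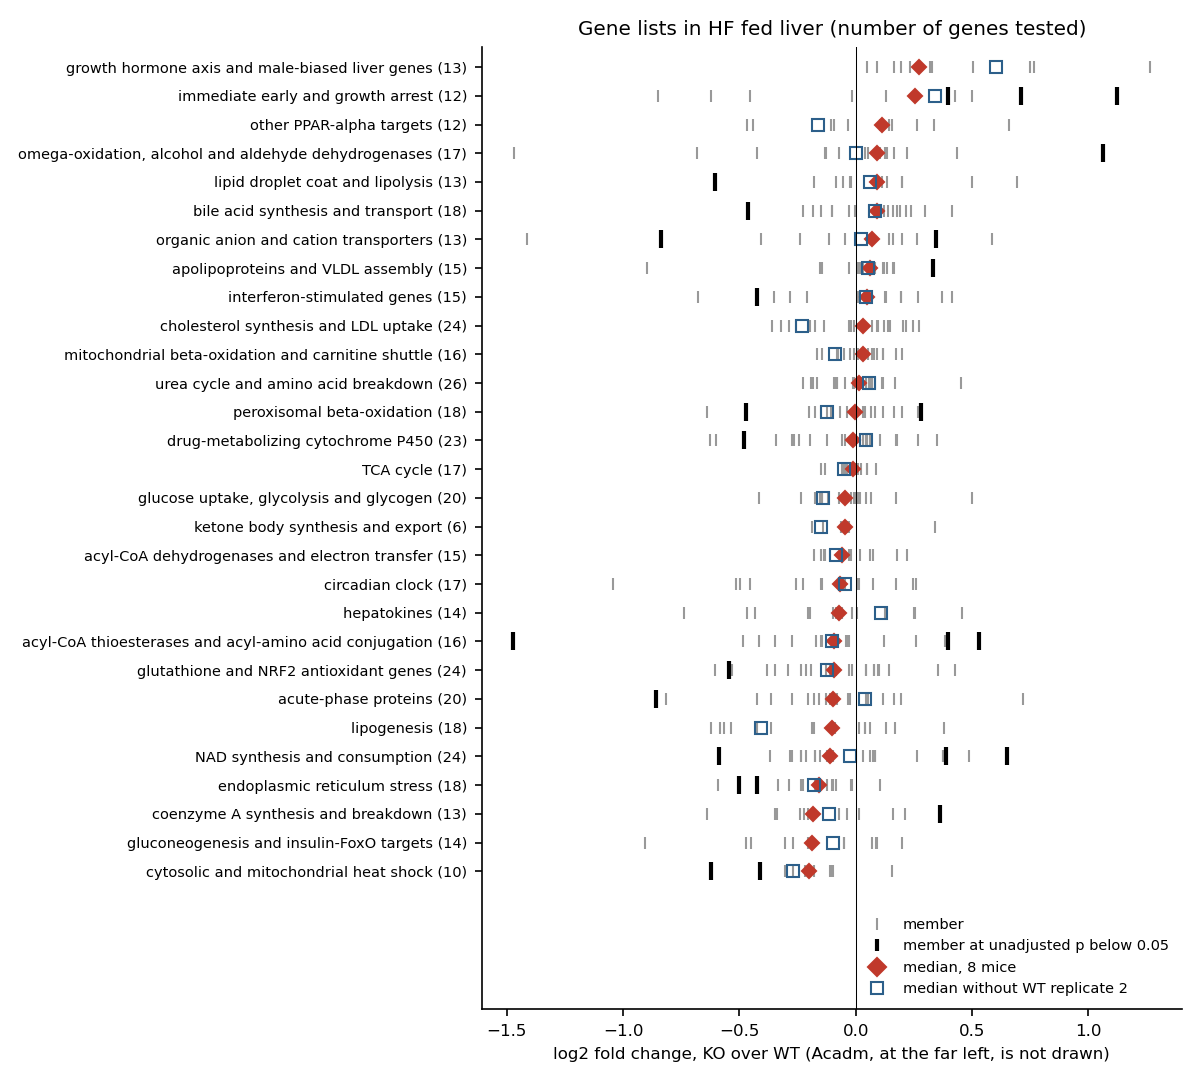
Log2 fold change of KO over WT for the members of 29 gene lists (grey ticks; black where the unadjusted p was below 0.05), with the list median over 8 mice (red diamond) and without WT replicate 2 (open blue square). The medians over 8 mice run from -0.20 to 0.27; without WT replicate 2 that of lipogenesis is -0.41 and that of the growth hormone list 0.60.

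Over the 29 lists, 481 distinct genes were tested, of which 12 (2.49%) were higher and 15 (3.12%) lower, where 2.0% and 1.93% of all genes were. The 15 include the targeted gene Acadm. Without KO replicate 1 and WT replicate 4 the lists of fat, CoA and NAD metabolism changed as follows. Members higher numbered 2 in place of 1 for peroxisomal beta-oxidation, 3 in place of 1 for omega-oxidation and 1 in place of 0 for the PPAR-alpha targets. They numbered 0 in place of 1 for CoA and for the apolipoproteins, and 1 in place of 2 for NAD. The lipid droplet list had 0 lower in place of 1, the bile acid list 1 higher and 0 lower in place of 0 and 1, and the cholesterol list a median of 0.22 with 0 past the threshold. Of 13 lipid droplet genes 1 was lower, Hilpda, an inhibitor of lipolysis (8.28 to 13.6 CPM in KO, 12.1 to 20.5 in WT, log2 fold change -0.60). Of 15 apolipoprotein and VLDL genes 1 was higher, Apoa1 of HDL, with 5440, 4973, 4542 and 6923 CPM in KO and 4449, 4272, 4079 and 4566 CPM in WT (log2 fold change 0.33, unadjusted p 0.033). KO replicate 3 lay within the WT range. Of 18 bile acid genes 1 was lower, the sterol exporter subunit Abcg5 (log2 fold change -0.46, unadjusted p 0.027). Of 13 transporters of organic anions and cations 1 was higher and 1 lower. Slco1a4, an importer of bile salts and drugs, had 23.2, 26.3, 41.4 and 19.5 CPM in KO and 54.4, 68.0, 38.6 and 37.7 CPM in WT, with KO replicate 3 above 2 WT mice (log2 fold change -0.84, SE 0.241, unadjusted p 0.0027). Slc22a30 had a log2 fold change of 0.35 in the other direction.

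In carbohydrate and nitrogen metabolism 0 genes passed. This held for 14 genes of gluconeogenesis and FoxO targets, 20 of glucose uptake, glycolysis and glycogen, 17 of the TCA cycle and 26 of the urea cycle and amino acid breakdown. The gluconeogenesis list had 4 positive members and a median of -0.19, which was -0.06 without KO replicate 1 and WT replicate 4. Pck1 had 2305, 2115, 2214 and 1714 CPM in KO and 4770, 6812, 1524 and 2562 CPM in WT. The KO mice were close to each other and lay within the wide WT range (log2 fold change -0.91, SE 0.455, unadjusted p 0.088). Fbp1, Ldha, Sdha, Sdhc, Cps1 and Glud1, which are among the members with the highest levels, had log2 fold changes between -0.23 and 0.07. The 17 circadian clock genes and the 14 hepatokine genes also had 0 members past the threshold, with Rora at 0.01, Nr1d2 at -0.05, Ahsg at -0.02 and Selenop at -0.21. In the 6 mice other than KO replicate 1 and WT replicate 4, the circadian list had 3 lower members and a median of -0.20 in place of -0.07, and Nr1d2 was at -0.43 (unadjusted p 0.027).

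All 13 tested genes of the growth hormone axis and male-biased liver expression had a positive log2 fold change, with a median of 0.27, and 0 passed the threshold. Igf1, the hormone that growth hormone induces in liver, had 1160, 940, 892 and 961 CPM in KO and 977, 798, 801 and 791 CPM in WT (log2 fold change 0.23, SE 0.138). WT replicate 1 overlapped the KO mice. Hsd3b5, a male-specific steroid enzyme, had 275, 205, 143 and 264 CPM in KO and 170, 162, 55.4 and 135 CPM in WT, with overlap (log2 fold change 0.77, unadjusted p 0.075). WT replicate 3 was the lowest mouse for Hsd3b5 and for Elovl3, which had 152 CPM there and 346 to 413 CPM in the other WT mice. It was also lowest for Mup3 and for Mup20 (442 CPM against 633 to 1156 CPM in the other WT mice), but not for Igf1. The list without WT replicate 3 is not given here, so it is not shown that all 13 stay positive without that mouse. Without WT replicate 2 the median was 0.60 and 4 genes were higher, namely Cish (1.003), Mup21 (0.96), Mup20 (0.62) and C6 (0.60). Without KO replicate 1 and WT replicate 4, 12 of the 13 were positive with 0 past the threshold. Several of these genes respond to one hormone and so do not count as independent. The major urinary protein genes are near-identical copies, whose reads the counting may divide.

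Of the 12 immediate early and growth arrest genes 3 were higher. Egr1, a transcription factor induced within minutes of a stimulus, had 62.0, 53.8, 52.3 and 20.2 CPM in KO and 8.73, 25.3, 19.3 and 32.5 CPM in WT. Only KO replicate 4 lay within the WT range, and the log2 fold change was 1.13 (SE 0.428, unadjusted p 0.028). Sgk1, a kinase induced by corticosteroids and insulin, had a log2 fold change of 0.71, and Dusp1, a phosphatase of MAP kinases, one of 0.40. Gadd45g (-0.85) and Gadd45a (-0.62) had values in the other direction and did not pass. The count of 3 became 0 without WT replicate 3 and also without KO replicate 2, so it rests on single mice.

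The glutathione, P450 and acute-phase lists had 1 lower member each, as did the 15 interferon-stimulated genes. With KO replicate 1 and WT replicate 4 left out, the glutathione list had 2 higher and 0 lower members, the interferon list 3 higher and 1 lower, and the acute-phase list 0 higher and 2 lower, so the first 2 turned direction in their counts. Gstt3, a glutathione transferase, had 92.1, 135, 149 and 111 CPM in KO and 155, 131, 226 and 198 CPM in WT (log2 fold change -0.55, unadjusted p 0.0065), among 24 glutathione and NRF2 genes. Without WT replicate 2 this list had 5 lower members, the others being Gsta2, Gstm1, Gstm2 and Gstm3. Cyp2a5, which oxidizes coumarin and nicotine, was the lower one of 23 drug-metabolizing P450 genes (log2 fold change -0.48, unadjusted p 0.0091). Saa3 was the lower one of 20 acute-phase genes (log2 fold change -0.86), with 28.3 CPM in WT replicate 2 and 7.11 to 15.7 CPM in the other 7 mice, and its unadjusted p of 0.017 became 0.184 without that mouse.

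The 12 higher genes with the smallest p were led by Lifr, the receptor of leukemia inhibitory factor, with 476, 362, 275 and 391.6 CPM in KO and 228, 274, 145 and 230 CPM in WT. KO replicate 3 and WT replicate 2 almost met, and the log2 fold change was 0.78 (SE 0.19, unadjusted p 0.00076). After it came Zfp655 (0.91), a zinc finger protein, Keg1, Scnn1a (0.996), a subunit of the epithelial sodium channel, 2610021A01Rik (1.51), Blzf1 (1.11), a Golgi protein, and Rnf135 (0.88), a ubiquitin ligase. The others were Ezr (0.97), which ties the actin cortex to the membrane, Ces3b (0.50), a carboxylesterase, Dennd1b (0.76), an activator of Rab GTPases, Pradc1 (2.02) and Mad2l1bp (0.74). Pradc1 was covered by 12 to 14 reads per KO mouse and 0 to 6 per WT mouse, so its fold change rests on very few reads. In 10 of the 12 the groups did not overlap, the exceptions being Ces3b and Mad2l1bp. Choosing genes by the smallest p in these mice favours groups that lie apart. Over all genes tested, 1.36% had all KO mice above all WT mice.

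The lower group after Acadm and Acnat2 was led by Acsl3, which activates long-chain fatty acids at the ER and lipid droplets. It had 34.8, 41.9, 38.3 and 48.0 CPM in KO and 58.8, 53.3, 85.5 and 66.5 CPM in WT, without overlap (log2 fold change -0.70, SE 0.177, unadjusted p 0.00076). Beside Selenos, Hsph1 and Slco1a4 the others were Sfxn2 (-0.45), a carrier of the inner mitochondrial membrane, Ap1g1 (-0.44) and Ap3s1 (-1.24), subunits of the adaptor complexes that sort vesicle cargo, and Irf1 (-0.72), a transcription factor of interferon responses. Rpl36a-ps1 (-0.59) and Gm7308 (-0.82) are uncertain, since reads of a pseudogene can belong to its parent gene. Ap3s1 had 5 to 16 counts in KO and 23 to 35 in WT. Each of these 24 genes kept its direction and its unadjusted p below 0.05 when any 1 of the 8 mice was left out. They had been chosen by the smallest p in these same mice, which favours that outcome, so it is no independent check. Without KO replicate 1 and WT replicate 4, 22 kept them and Blzf1 and Hsph1 did not, and with the lane 7 mice alone 21 kept them and Scnn1a, Rnf135 and Gm7308 did not. In the model of all groups Keg1, Ces3b and Hsph1 lost the threshold, and with a minimum mean of 20 counts 2610021A01Rik and Pradc1 were not tested. Among the HF fed mice, lane 8 held KO replicates 3 and 4 and 1 WT mouse, replicate 4, so it gives no comparison of its own.

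Whether the KO to WT difference of HF fed mice differed from that in other conditions was tested as an interaction, with fed mice on the low-fat (LF) diet and with HF mice fasted for 16 h. KO HF fasted replicate 4 was left out there, whose hepatocyte marker sum was 950 CPM where the lowest of the other 31 mice had 50559 CPM. At an adjusted p below 0.05, 0 of 10791 genes passed for the diet and 0 of 11026 for the feeding state, by edgeR and also by DESeq2. At an unadjusted p below 0.05 edgeR had 520 genes (4.82%) for the diet and 524 (4.75%) for the feeding state, so neither share exceeded 5% by edgeR. DESeq2 had more genes in both, 577 and 540, and whether its shares stayed below 5% is not given here. The HF fed mice enter both tests and also chose most genes named here, which favours a difference in the same direction, and the 2 tests share these mice. All WT LF fed mice were on lane 8, while KO LF fed mice were on lanes 7 and 8. Genotype and lane are therefore not fully told apart in the LF fed values.

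Acnat2 was high in the WT HF fed mice among these groups. In LF fed mice it had 17.3 ± 7.201 and 14.4 ± 4.63 CPM in KO and WT (SD, n = 4 each), and in HF fasted mice 36.9 ± 8.54 (SD, n = 3) and 37.7 ± 11.8 CPM (SD, n = 4). On the scale of each of these fits the HF fed KO mice had 24.4 and 23.8 CPM and the HF fed WT mice 67.7 and 66.1 CPM. The log2 fold change of KO over WT was thus 0.28 (SE 0.347) in LF fed and -0.03 (SE 0.29) in HF fasted mice. The difference from the HF fed value was -1.75 (SE 0.473, unadjusted p 0.0015) for the diet and -1.44 (SE 0.397, unadjusted p 0.0018) for the feeding state, with adjusted p of 0.943 and 0.932.

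Of the ER and heat shock genes compared here, Hspa5, Selenos, Hsph1 and Hsp90aa1 had the opposite sign in both other conditions. Pdia3 had it in HF fasted mice only. Hspa5 had a log2 fold change of KO over WT of 0.55 in LF fed and 0.62 in HF fasted mice, and differed from the HF fed value by -0.98 (SE 0.331, unadjusted p 0.0069) and -1.05 (SE 0.285, unadjusted p 0.0011). Its KO mice spread widely on the LF diet, from 1829 to 5165 CPM, against 1883 to 3518 CPM in WT. Selenos had 0.10 and 0.35, and its difference for the feeding state was -0.85 (SE 0.221, unadjusted p 0.00074). Hsph1 had 0.73 in LF fed mice (28.3 to 110 CPM in KO, 28.7 to 61.3 CPM in WT) and Hsp90aa1 0.43, both with a difference for the diet (unadjusted p 0.011 and 0.0047). In HF fasted mice Hsph1 was at 0.06 and Hsp90aa1 at 0.02, neither past the threshold. Pdia3 kept its negative sign in LF fed mice (-0.05, unadjusted p 0.804) and was at 0.26 in HF fasted mice. Keg1 was 0.05 in LF fed and -0.26 in HF fasted mice. Lifr kept its positive sign in both, at 0.10 and 0.06. Slco1a4 also kept the HF fed sign in both, with a log2 fold change of -1.06 (unadjusted p 0.00012) in HF fasted and -0.43 in LF fed mice. Scnn1a, Aspdh and Hilpda kept the HF fed sign in LF fed mice only. In LF fed mice Scnn1a was at 1.002 (unadjusted p 0.019), Aspdh at 0.46 (unadjusted p 0.017) and Hilpda at -0.83 (unadjusted p 0.011), while in HF fasted mice these 3 were at -0.06, -0.28 and 0.75. Acadm was lower in all 3 conditions, by log2 fold changes of -3.91 in LF fed and -4.59 in HF fasted mice.

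The genes with the smallest interaction p were others. For the diet, Tut4, a uridylyltransferase of RNA 3′ ends, had 28.3 CPM in KO and 22.8 CPM in WT HF fed mice but 17.4 and 40.3 CPM in LF fed mice, a difference of 1.52 (SE 0.348, unadjusted p 0.00019). Ano1 (3.01) and Dennd1b (1.31) followed in this direction, and Fam13a (-1.89), Prpf19 (-0.83) and Slc11a2 (-0.9998) in the other. For the feeding state, Cndp2, a dipeptidase, had 7.28 CPM in KO and 13.9 CPM in WT HF fasted mice and the opposite order in HF fed mice, a difference of 1.53 (SE 0.356, unadjusted p 0.00024). Slc25a1 (0.75), the mitochondrial citrate carrier, and Adck5 (1.21) followed, with Ap1g1 (-0.80), Stxbp6 (-1.27) and Efna1 (-1.24) in the other direction.

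**Figure D5:**
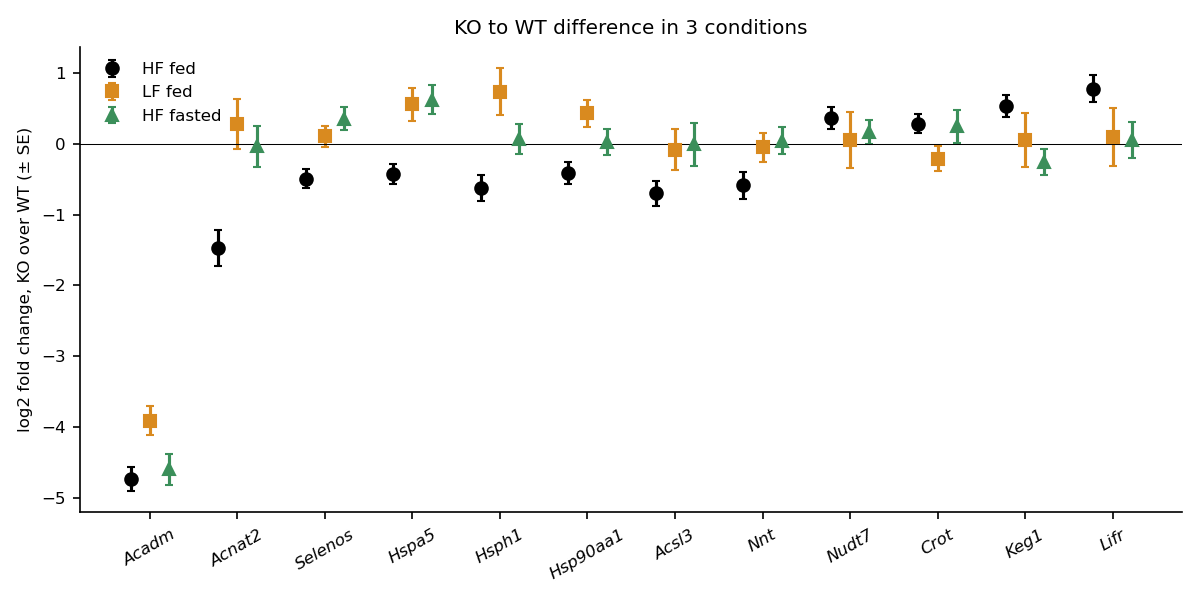
Log2 fold change of KO over WT, with SE bars, for 12 genes in HF fed (black circles), LF fed (orange squares) and HF fasted livers (green triangles). Acadm is near -4 to -5 in all 3, and Acnat2 is -1.47 in HF fed mice and near 0 in the others. Hspa5, Selenos, Hsph1 and Hsp90aa1 are negative in HF fed mice and positive in the others, Hsph1 and Hsp90aa1 lying near 0 in HF fasted mice.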

How the data were processed

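RNA from whole liver of 32 mice was sequenced, and the 8 HF fed mice are described here. Per the methods and the labels, the authors made 3′ end (QuantSeq) libraries, aligned single reads with HISAT 0.1.5 to GRCm38 and counted them per Ensembl gene with HTSeq; the strand setting is not given in the sources used here. The deposited values are unnormalized counts for 20076 genes. Each mouse was 1 replicate. Genes passing filterByExpr (10024) were tested with edgeR 4.0.16 by a robust quasi-likelihood F test with TMM factors and Benjamini-Hochberg adjustment; SE is the log2 fold change divided by the square root of F. limma 3.58.1 voom, DESeq2 1.42.0, other filters, lane, replicate block and leaving out mice were the alternatives. In simulated counts of 4 against 4 mice, 40 of 50 genes raised 2-fold and 50 of 50 raised 4-fold were called, as were 35 of 50 lowered 2-fold, with 7 false calls. The changed genes all had a mean of at least 20 counts. The simulated spread between mice depended only on a gene's level, with no mouse set apart. These shares therefore need not hold for the real mice. Named genes were those at an adjusted p below 0.05, the 12 with the smallest p in each direction outside the markers of other tissues, in each list those at an unadjusted p below 0.05 or, where none was, the 2 with the highest levels, Acnat2, Acnat1 and Acot2, and the 3 with the smallest interaction p in each direction; others were chosen after their values were seen. The genes and lists were chosen with earlier results of these data known. Some genes that this rule names are not reported here.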

Additional observations from a re-analysis of the deposited data

Results flagged for a closer look

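In 184 groups of 4 mice the gap between the extreme mouse and its nearest neighbour was compared with the range of the group. For independent values of a normal distribution this marks about 1 group in 20. Here it marked 20 of the 184. Some marker sums were at or near 0 in most mice, and many genes were chosen by their values in these mice. The rate of 1 in 20 therefore need not hold here, and the 20 are not read as an excess over it. Among genes in KO mice, replicate 3 was apart for Zfp655 (17.9 CPM, lowest), Cyp2a5 (203 CPM), Rora (221 CPM), Hspa5 (2354 CPM) and Pdia3 (24.4 CPM), the last 4 as the highest mouse. KO replicate 1 was apart for Keg1 (205 CPM, highest) and Sc5d (571 CPM, lowest), and KO replicate 4 for Ldha (787 CPM, highest). Among WT mice, replicate 2 was apart for Acaa2 (714 CPM, lowest) and Ahsg (9973 CPM, highest), replicate 1 for Igf1 (977 CPM, highest) and replicate 4 for Ap1g1 (113 CPM, highest).

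Summed markers of other tissues marked KO replicate 1 for acinar pancreas (3147 CPM), pancreatic islet (3.26 CPM), skeletal muscle (2152 CPM), adrenal medulla (24.3 CPM) and mesothelium (17.8 CPM). WT replicate 4 was marked for skeletal muscle (1182 CPM) and heart (20.5 CPM), and WT replicate 3 for endothelial genes (450 CPM).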

How the results depend on the processing

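The count of genes at an adjusted p below 0.05, 1 with all mice, was 2 by DESeq2, 15 with no filter on low counts and 5 with a replicate block, and ranged from 1 to 2 without any 1 mouse. Genes higher at an unadjusted p below 0.05 (200) numbered 493 with no filter and 130 with all groups in one model, and from 162 to 282 without any 1 mouse; genes lower (193) numbered 381, 103 and 165 to 261. The log2 fold change of Acnat2 was -1.48 by DESeq2, -1.47 with no filter and -1.54 with the replicate block, each then at an adjusted p below 0.05, and -1.69 to -1.28 without any 1 mouse, passing without KO replicate 3. With no filter more genes were tested (17377); otherwise the cause was not tested. Residuals of mice with the same number correlated at -0.0229, 0.0247, 0.134 and 0.175. The WT mouse that correlated best had the same number for KO replicates 3 and 4 but not for KO replicates 1 and 2. These values do not settle whether the numbers pair the mice, which the sources used here do not give. The interaction counts at an adjusted p below 0.05 were 0 under every alternative run.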
